A study of Mus musculus with 6 samples.

Results

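The genes described here encode proteins that join a muscle fibre, or a cell lying between the fibres, to the matrix around it or to its neighbours. They are the dystrophin complex, the integrins, and the cadherins with the protocadherins. Members were chosen by a rule on gene symbols, with earlier results of these data known. The rule took symbols that begin with Itga, Itgb or Pcdh, or with Cdh and a digit, the sarcoglycans, the syntrophins, Dmd, Dag1 and Utrn, and left out Cdh5 and Cdh15. Described here are 63 genes of the 11239 in the deposited tables. These carry 62 different symbols, because Itgam is listed under 2 identifiers. The GENCODE M21 annotation holds 135 protein-coding genes whose names match the rule. The others, among them Dag1, Itgb1, Itga3, Itga6, Itgb3 and Sgca, were not analysed here.

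The tissue was the tibialis anterior (TA) of C57BL/6 mice, a hindlimb muscle of mostly fast fibres that lifts the foot, and its RNA was sequenced. The young group held 3 samples of mice aged 3 months and the aged group 3 samples of mice aged 18 months, and the labels name no further treatment or allele in either. The study is concerned with G-CSF made by muscle and with muscle stem cells, and this comparison asks what ageing does to the muscle's transcripts. The labels give neither the sex of the animals nor whether each sample came from its own animal, so p-values measure the spread between these samples.

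The dystrophin complex spans the membrane of the muscle fibre. Dystrophin binds actin inside the cell and dystroglycan in the membrane, the sarcoglycans stabilise dystroglycan, and the syntrophins are adaptors that hold signalling proteins such as neuronal nitric oxide synthase at the membrane. Integrins are receptors built from an alpha and a beta chain, and the pair decides whether the cell holds laminin, collagen, fibronectin or vitronectin. In the muscle fibre the main integrin is alpha 7 with beta 1, a laminin receptor that works beside dystroglycan. Cadherins bind the same cadherin on the next cell through calcium-dependent repeats, and most are tied to actin by catenins. Protocadherins share the repeats but lack the catenin-binding tail.

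Promoter windows are shown for 4 members, chosen among those called lower and higher. Itgbl1 had the largest fall of the tested members and Itga5 the largest fall of the tested matrix-binding integrins. Itgb5 was the integrin that rose and Sgcd the gene of the dystrophin complex with the larger rise. Cdh4, which had the largest rise of the tested members, is not shown. Each window holds 250 bases before and 50 after the start that RefSeq gives (GRCm38.p6), read 5′ to 3′ on the gene's strand. Capitals mark each CANNTG, the E-box letters that muscle regulatory factors of the MyoD family and many other proteins bind. These letters read the same on both strands.
Itgbl1, chr14:123659890-123660189, plus strand: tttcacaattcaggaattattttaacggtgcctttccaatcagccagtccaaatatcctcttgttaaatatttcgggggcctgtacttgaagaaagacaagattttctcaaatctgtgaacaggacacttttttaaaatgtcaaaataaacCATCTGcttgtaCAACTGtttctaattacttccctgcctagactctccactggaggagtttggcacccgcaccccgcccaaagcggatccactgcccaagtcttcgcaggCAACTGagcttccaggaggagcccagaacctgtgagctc
Itga5, chr15:103366742-103367041, minus strand: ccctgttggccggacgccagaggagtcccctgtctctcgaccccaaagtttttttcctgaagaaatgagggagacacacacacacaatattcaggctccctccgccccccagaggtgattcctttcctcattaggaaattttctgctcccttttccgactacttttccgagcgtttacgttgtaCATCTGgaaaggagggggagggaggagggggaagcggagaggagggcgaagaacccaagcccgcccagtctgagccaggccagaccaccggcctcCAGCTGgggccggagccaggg
Itgb5, chr16:33829415-33829714, plus strand: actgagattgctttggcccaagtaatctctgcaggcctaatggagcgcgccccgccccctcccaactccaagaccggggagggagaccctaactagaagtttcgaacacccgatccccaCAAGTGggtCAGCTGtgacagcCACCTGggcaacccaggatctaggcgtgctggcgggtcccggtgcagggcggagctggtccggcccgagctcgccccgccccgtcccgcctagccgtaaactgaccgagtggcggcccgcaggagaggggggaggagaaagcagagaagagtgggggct
Sgcd, chr11:47379276-47379575, minus strand: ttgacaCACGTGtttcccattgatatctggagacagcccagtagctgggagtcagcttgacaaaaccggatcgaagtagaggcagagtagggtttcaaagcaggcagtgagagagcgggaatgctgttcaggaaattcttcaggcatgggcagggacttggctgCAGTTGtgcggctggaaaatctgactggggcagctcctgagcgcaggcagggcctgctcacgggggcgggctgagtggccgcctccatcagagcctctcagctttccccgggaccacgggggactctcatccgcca
The windows of Itgbl1 and Itgb5 hold 3 such matches each and those of Itga5 and Sgcd hold 2 each. The falling and rising genes shown were alike in this count, and they are too few to compare falling with rising genes. Of 32851 RefSeq windows of the same length, 72.3% hold at least 1. The start used for Sgcd lies inside the locus that the deposited tables list for the gene. A match is a description of letters and not a bound site. RefSeq windows were matched for 32 of the 62 symbols.

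Values are FPKM, fragments per kilobase of transcript at a fixed number of mapped fragments, as the authors deposited them. The 6 libraries held between 71984420 and 102135094 mapped fragments. The tissue label was checked against muscle fibre genes such as Acta1 and Ckm. Of 10 such markers 9 were listed, and they summed to 93338 to 100085 FPKM in the young libraries and 87437 to 91353 in the aged ones. Values of single genes are given in the order of replicates 1, 2 and 3. The change of a gene is aged minus young on the log2(FPKM + 1) scale with its standard error (SE), from limma fitted across the 7690 genes whose mean over the 6 libraries reached 1 FPKM. Calls are at an adjusted p under 0.05. In whole muscle, fewer cells of a type and less RNA per cell cannot be told apart.

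Of the 63 members, 29 reached the mean of 1 FPKM and 34 lay under it. Among the 29 tested, 5 were called higher in aged muscle, namely Cdh4, Dmd, Itgb5, Pcdh12 and Sgcd. Over all tested genes 27.3% were called higher, against 17.2% of the tested members. A further 8 were called lower, namely Cdh13, Itga5, Itga8, Itga9, Itgb1bp2, Itgbl1, Pcdhgc3 and Sntb2. Of these Pcdhgc3 reached the minimum through the young libraries alone, where it was high. The 8 are 27.6% of the tested members, near the 24.5% of all tested genes called lower. The remaining 16 were not called. All 3 aged libraries lay above all 3 young ones for 6 members, where 33.8% of all tested genes did so, and below them for 11 members, where 29.0% of all tested genes did so. The median change of the 29 was -0.13, beside 0.020 over all tested genes. Only Itgbl1 changed by 1 or more on the log2(FPKM + 1) scale. Adding 1 FPKM shrinks the change of genes with low values, such as Cdh4, whose fold change in mean FPKM is larger.

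**Figure D1:**
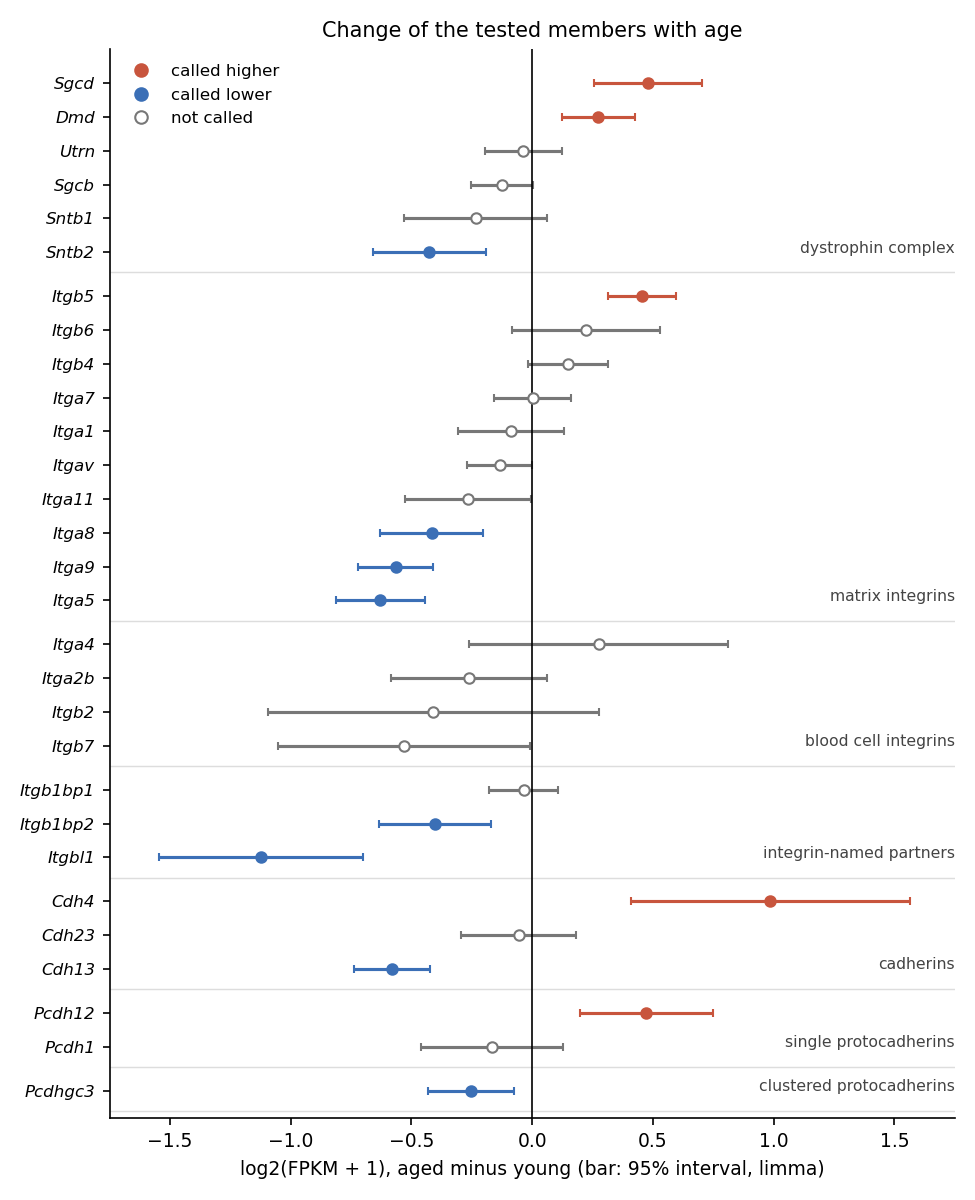
Change of each of the 29 tested members with age, as aged minus young on the log2(FPKM + 1) scale, with bars for the 95% interval from limma, grouped by role. Filled red points were called higher, filled blue points lower and open points not called. Itgbl1 stands farthest to the left at -1.12 and Cdh4 farthest to the right at 0.99.

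Within the dystrophin complex Dmd and Sgcd rose with age, Sntb2 fell, and Utrn, Sgcb and Sntb1 were not called. That is 33.3% of the 6 tested higher and 16.7% lower, beside 27.3% and 24.5% of all tested genes. All 7 genes described were detected, and only Sntg2, a gamma syntrophin gene known mainly from brain, lay under the minimum. The median change over the 6 tested was -0.08.

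Dmd (chrX:82948870-85206141) encodes dystrophin. Its values were 50.7, 46.3 and 45.0 FPKM in the young libraries and 59.8, 55.1 and 57.2 FPKM in the aged ones. The groups did not overlap, and the means were 47.3 ± 2.95 and 57.4 ± 2.37 FPKM (SD, n = 3 each), 1.21-fold higher in aged muscle. On the log2 scale the rise was 0.27 ± 0.07 (adjusted p = 0.0104). Dmd makes a full-length form and several short ones, and the deposited values do not separate them. The length behind its FPKM was 2888 bases, the mean of its annotated transcripts, while the longest of these has 14910. Its level can therefore not be set against those of other genes as that of the full-length form, and its change between libraries does not depend on the length.

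Utrn (chr10:12382188-12861735) encodes utrophin, the relative of dystrophin that in adult muscle is concentrated at the neuromuscular and myotendinous junctions. Its values were 4.73, 4.78 and 5.01 FPKM in young and 5.03, 4.58 and 4.48 FPKM in aged muscle. The groups overlapped and the change of -0.04 ± 0.07 was not called (95% interval -0.20 to 0.12, adjusted p = 0.676).

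Sgcd (chr11:46896253-47988969), delta-sarcoglycan, was at 8.79, 8.70 and 8.96 FPKM in the young libraries, which lay close together, and at 12.1, 11.4 and 14.9 FPKM in the aged ones. Every aged library was higher, with aged replicate 3 the highest. The means of 8.82 ± 0.13 and 12.8 ± 1.89 FPKM differ 1.45-fold, and the rise was 0.48 ± 0.10 (adjusted p = 0.00547). Sgcb, beta-sarcoglycan, was more abundant, at 73.6, 73.5 and 74.4 FPKM in young and 65.6, 65.9 and 71.3 FPKM in aged muscle. Its aged values all lay below the young ones, with a change of -0.13 ± 0.06 that missed the threshold (adjusted p = 0.0876).

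Sntb2 (chr8:106935750-107019714), beta-2 syntrophin, which is enriched at the neuromuscular junction, was at 4.0, 4.41 and 3.74 FPKM in young and 3.28, 2.55 and 2.49 FPKM in aged muscle. The groups did not overlap, and the change was -0.43 ± 0.10 (adjusted p = 0.0102). Sntb1, beta-1 syntrophin, was at 4.05, 3.52 and 3.27 FPKM in young and 2.59, 3.74 and 2.51 FPKM in aged muscle. Its aged replicate 2 lay within the young range, and the change of -0.23 ± 0.13 was not called (adjusted p = 0.159). Of 10 neuromuscular junction markers 9 were listed and 8 tested, of which 1 was called higher and 2 lower. For this and the other cell type marker lists the background is the 27.3% of all tested genes called higher and the 24.5% called lower. Their summed level was 90.1 to 96.0 FPKM in young and 68.1 to 78.3 FPKM in aged muscle, and its part in the change of Sntb2 was not tested. Sntg2 was at 0.146, 0.153 and 0.135 FPKM in young and 0.171, 0.205 and 0.192 FPKM in aged muscle, from 57 and 77 fragments over the libraries of each group, and was not called (adjusted p = 0.0827 without the minimum).

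**Figure D2:**
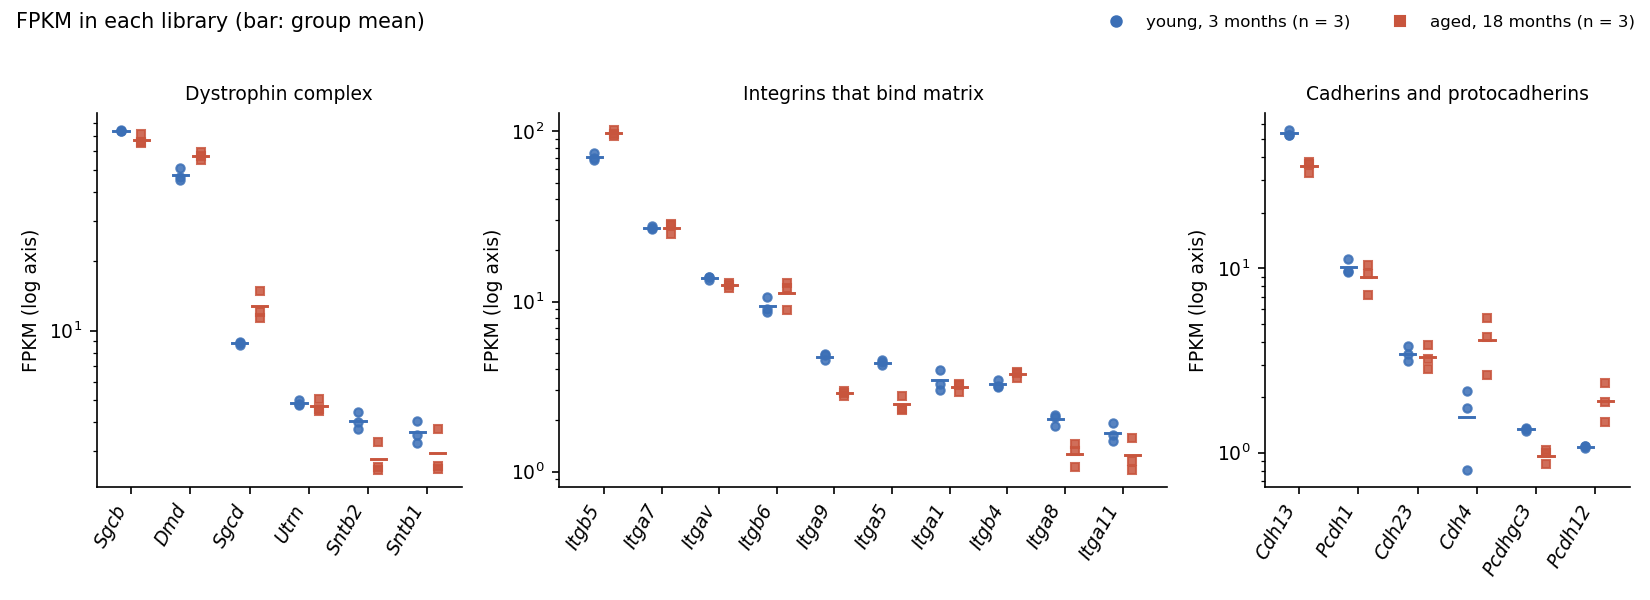
FPKM in each library on log axes for the 6 tested genes of the dystrophin complex, the 10 tested matrix-binding integrins and the 6 tested cadherin and protocadherin genes. Blue circles are young and red squares aged libraries, and the short line is the group mean. The aged points of Dmd, Sgcd and Itgb5 lie above the young ones, and those of Sntb2, Itga5, Itga8, Itga9 and Cdh13 lie below them.

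A list of 18 partners of the complex held 15 tested genes, of which 3 were called higher, 7 lower and 5 not called, with a median change of -0.12. For this and the other partner lists the background is the 27.3% of all tested genes called higher and the 24.5% called lower. All lists were drawn up with earlier results of these data known, so their counts are a description and not a test. Without young replicate 2 only 4 were called lower. Sspn, the sarcospan gene, whose product binds the sarcoglycans, went from 28.8, 29.5 and 29.7 to 18.4, 15.9 and 18.5 FPKM, a fall of every aged library below the young ones (change -0.71 ± 0.07, adjusted p = 0.000308). Ank3, an ankyrin that helps to hold the complex at the fibre's membrane, fell from 61.9 ± 0.557 to 38.8 ± 3.51 FPKM (change -0.66 ± 0.07, adjusted p = 0.000399). Ahnak, a large membrane-associated scaffold protein, fell from 64.2 ± 8.10 to 44.0 ± 5.78 FPKM (change -0.53 ± 0.12, adjusted p = 0.00811). Nos1, neuronal nitric oxide synthase, whose product the complex holds at the membrane, rose from 42.7, 43.4 and 44.3 to 75.2, 70.6 and 55.0 FPKM (change 0.60 ± 0.11, adjusted p = 0.00352).

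Dystroglycan holds laminin through sugars that a chain of enzymes builds on it. A list of 20 symbols for these enzymes and their sugar donors, some of them older names, held 11 tested genes, of which 3 were called higher, 1 lower and 7 not called (median change -0.01). B3galnt2 and Pomgnt2, which build the core sugars on dystroglycan, rose by 0.58 ± 0.09 (adjusted p = 0.00172) and 0.46 ± 0.07 (adjusted p = 0.00122). B4gat1, which primes the laminin-binding chain, fell from 15.9 ± 0.458 to 12.8 ± 0.592 FPKM (change -0.29 ± 0.06, adjusted p = 0.00670).

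Among the 12 integrin genes whose products bind matrix, 10 were tested. Itgb5 rose, Itga5, Itga8 and Itga9 fell, and Itga1, Itga7, Itga11, Itgav, Itgb4 and Itgb6 were not called. Their median change was -0.11. The fibre's own alpha chain, Itga7, was among those not called. The falls called among the 10 were in alpha chains for fibronectin, nephronectin and tenascin. Itga10, a collagen-binding chain under the minimum, was lower in every aged library as well.

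Itga7 (chr10:128933813-128958277), the alpha chain of the fibre's laminin receptor, had 26.7, 27.6 and 27.0 FPKM in young and 28.3, 24.8 and 28.6 FPKM in aged muscle. The aged values lay on both sides of the young ones. The change was 0.00 ± 0.07, with a 95% interval of -0.16 to 0.16 (adjusted p = 0.977).

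Itgb5 (chr16:33829665-33949153), the beta 5 chain that joins alpha v to make a vitronectin receptor, was the most abundant integrin gene listed. It rose from 69.5, 74.6 and 68.3 FPKM to 102, 93.5 and 96.8 FPKM, with every aged library above every young one. The means of 70.8 ± 3.34 and 97.4 ± 4.29 FPKM differ 1.38-fold, and the change was 0.46 ± 0.06 (adjusted p = 0.000969). Its partner Itgav, the alpha v chain, was at 13.4, 13.9 and 14.0 FPKM in young and 12.8, 12 and 12.6 FPKM in aged muscle. The aged values of Itgav were all lower, but the change of -0.13 ± 0.06 missed the threshold (adjusted p = 0.0854). The ratio of Itgb5 to Itgav was 5.14 ± 0.24 in young and 7.81 ± 0.14 in aged muscle (SD, n = 3 each). This ratio was chosen after the values were seen and is a description without a test. Itgb6, another partner of alpha v and best known from epithelia, was at 8.67, 9.09 and 10.6 FPKM in young and 12.1, 8.96 and 12.8 FPKM in aged muscle, with overlapping groups (change 0.22 ± 0.13, adjusted p = 0.187). Itgb6 was called higher without aged replicate 2 (adjusted p = 0.0195) and by limma-voom on whole fragment counts with the block (adjusted p = 0.0415).

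Itga5 (chr15:103344286-103366763) encodes the alpha 5 chain of the classical fibronectin receptor. Its values were 4.24, 4.39 and 4.51 FPKM in young and 2.80, 2.34 and 2.31 FPKM in aged muscle, 1.76-fold lower in the mean and without overlap. The change was -0.63 ± 0.08 (adjusted p = 0.000783). Itga9 (chr9:118606690-118901003), whose chain binds tenascin-C and other matrix and vascular ligands, was at 4.90, 4.50 and 4.83 FPKM in young and 2.88, 2.79 and 2.97 FPKM in aged muscle. It was 1.65-fold lower in the mean, again without overlap (change -0.57 ± 0.07, adjusted p = 0.000619). Itga8 (chr2:12106632-12301922), a chain that binds nephronectin and fibronectin, was at 2.08, 2.15 and 1.86 FPKM in young and 1.45, 1.32 and 1.06 FPKM in aged muscle. Its groups did not overlap either (change -0.42 ± 0.09, adjusted p = 0.00771). An antisense transcript, E030013I19Rik, shares 5.05% of the exon bases of Itga8. No source used here gives the strandedness of the libraries, so reads of this pair cannot be told apart.

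The alpha chains that bind collagen were low. Itga1 was at 3.04, 3.98 and 3.28 FPKM in young and 3.24, 3.29 and 2.94 FPKM in aged muscle, with overlapping groups (adjusted p = 0.458). Itga11, which is made by fibroblasts, was at 1.94, 1.52 and 1.64 FPKM in young and 1.58, 1.03 and 1.15 FPKM in aged muscle. Aged replicate 1 lay within the young range, and the change of -0.27 ± 0.11 was not called (adjusted p = 0.0808), though it was with the replicate number as a block (adjusted p = 0.0360). Itga10, known from cartilage, had a mean of 1.08 ± 0.166 FPKM in young and 0.482 ± 0.107 FPKM in aged muscle and so lay under the minimum over all libraries. Its values were 1.21, 1.13 and 0.893 FPKM in young and 0.362, 0.515 and 0.568 FPKM in aged muscle, all aged below all young, and it was called lower when no minimum was set (adjusted p = 0.00769). The predicted gene Gm42957 shares 33.5% of its exon bases, so how reads were divided between them is uncertain. Itga2 lay between 0.0423 and 0.271 FPKM in the 6 libraries and was not called (adjusted p = 0.347 without the minimum). Itgb4, which with alpha 6 binds laminin in epithelia and nerve sheaths, was at 3.17, 3.47 and 3.16 FPKM in young and 3.87, 3.78 and 3.53 FPKM in aged muscle. All aged values were higher, but the change of 0.15 ± 0.07 was not called (adjusted p = 0.113).

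Markers of connective tissue cells are given here beside the tested matrix-binding integrins, of which Itga5, Itga8 and Itga9 were called lower and Itgb5 higher. Of 8 fibroblast markers, all tested, 6 were called lower and 0 higher, with sums of 834 to 1151 FPKM in young and 503 to 744 FPKM in aged muscle. Of 8 tendon cell markers, all tested, 7 were called lower and 0 higher, with sums of 220 to 430 FPKM in young and 93.9 to 111 FPKM in aged muscle. Of 8 smooth muscle and pericyte markers 6 were tested, of which 3 were called lower and 0 higher. Their sums, 2225 to 2381 FPKM in young and 2317 to 2367 FPKM in aged muscle, overlapped and were mostly Des, which muscle fibres also express. No listed marker was at 0 in all libraries. The part of these cells in the changes of Itga5, Itga8, Itga9, Itga10 and Itga11 was not tested.

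Most tested genes for the ligands of integrins and dystroglycan fell. The ligands are matrix proteins and a few cell-surface proteins, such as those of Vcam1 and Icam1, neither of which was called. Of 28 ligand genes 20 were tested, of which 13 were called lower, 1 higher and 6 not called (median change -0.56). Over all tested genes 24.5% were called lower and 27.3% higher. The list was drawn up with earlier results of these data known, so its share is a description and not a test. Of the fibroblast and tendon cell markers, 6 of 8 and 7 of 8 were called lower. The part of these cells in the changes was not tested. Fn1, fibronectin, the ligand of alpha 5, fell from 71.6, 41.5 and 36.0 to 17.6, 10.2 and 11.2 FPKM (change -1.83 ± 0.27, adjusted p = 0.00155). Col6a1 and Col6a2, chains of collagen VI, changed by -1.54 ± 0.12 (adjusted p = 0.000117) and -1.4 ± 0.11 (adjusted p = 0.000132). Nid1, the basement membrane linker nidogen-1, fell from 33.2, 36.0 and 31.9 to 15.3, 12.7 and 11.1 FPKM (change -1.32 ± 0.11, adjusted p = 0.000143). The gene that rose was Npnt, nephronectin, a ligand of alpha 8, from 2.16, 2.13 and 2.43 to 4.58, 6.01 and 5.11 FPKM while Itga8 fell (change 0.94 ± 0.10, adjusted p = 0.000356).

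Inside the cell, integrins are tied to actin by an adhesion complex of adaptor proteins. A list of 31 genes held adaptors of this complex, kinases, membrane proteins such as Cd151, and genes of the Z-disc such as Csrp3 and Actn2. Of the 31, 23 were tested, of which 14 were called lower, 3 higher and 6 not called (median change -0.27). The counts are therefore not those of adaptors alone. The 3 called higher became 1 when young replicate 1, young replicate 2 or aged replicate 3 was left out. Csrp3, a LIM-domain protein of the Z-disc and costamere, fell from 111, 120 and 149 to 24.6, 12.6 and 13.4 FPKM (change -2.89 ± 0.23, adjusted p = 0.000126). Actn2, an alpha-actinin of Z-discs, fell from 812 ± 4.15 to 312 ± 38.5 FPKM (change -1.39 ± 0.09, adjusted p = 5.24e-05). The more abundant alpha-actinin gene Actn3 was at 4223 ± 290 FPKM in young and 4470 ± 452 FPKM in aged muscle. Its groups overlapped and it was not called (change 0.08 ± 0.09, adjusted p = 0.472). Lims2, which links integrin-linked kinase to actin, and Zyx, zyxin, changed by -0.65 ± 0.09 (adjusted p = 0.00101) and -0.64 ± 0.10 (adjusted p = 0.00227).

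**Figure D3:**
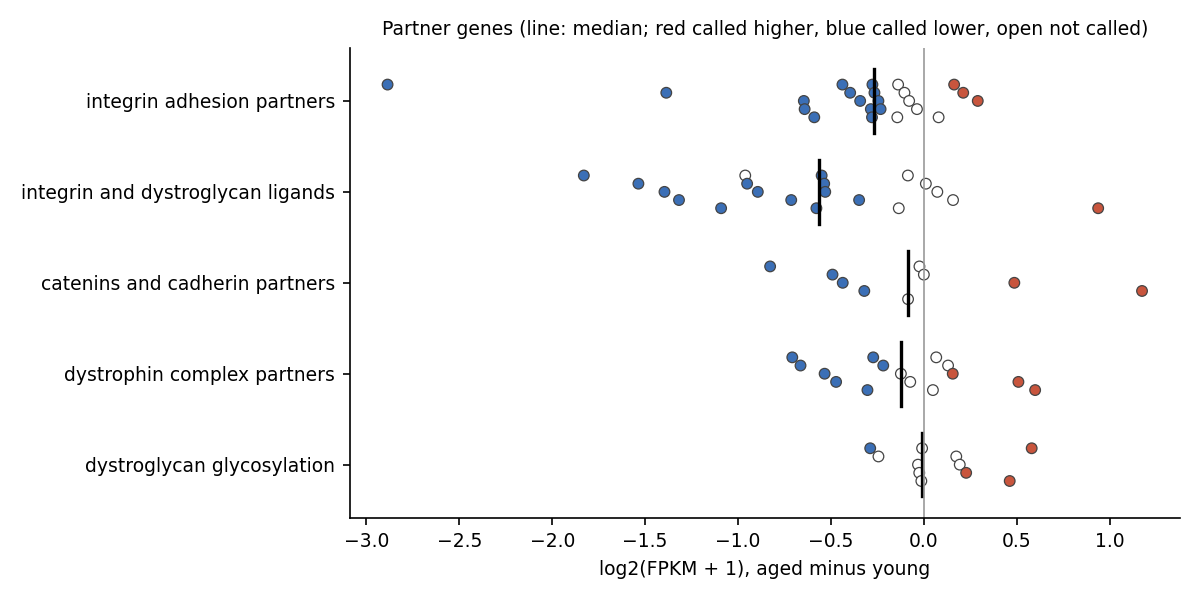
Change of each tested partner gene with age, as aged minus young on the log2(FPKM + 1) scale, in the 5 partner lists. Each point is a gene, red where called higher, blue where called lower and open where not called, and the black line is the median of the list. The ligands have the lowest median at -0.56 and the glycosylation genes the highest at -0.01.

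Of the 3 genes that carry integrin in their name without being integrin chains, Itgbl1 and Itgb1bp2 fell. Itgbl1 (chr14:123659971-123975618) encodes integrin beta-like 1, a secreted protein with repeats like those of integrin beta chains. Its values were 6.31, 4.63 and 3.50 FPKM in young and 2.05, 1.26 and 1.6 FPKM in aged muscle. Every aged library was lower, 2.94-fold in the mean, and the change was -1.12 ± 0.18 (adjusted p = 0.00220). Without young replicate 1, the library with its highest value, the change was -0.94 (adjusted p = 0.00511). Among the young libraries Itgbl1 was highest in replicate 1 and lowest in replicate 3, and so were the summed tendon markers, at 430, 342 and 220 FPKM. The part of tendon cells in the change of Itgbl1 was not tested.

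Itgb1bp2 (chrX:101449088-101453541) encodes melusin, a muscle-specific protein that binds the tail of integrin beta 1. It went from 81.7, 76.1 and 85.1 FPKM to 52.6, 61.8 and 69.5 FPKM. The groups did not overlap, and the change was -0.40 ± 0.10 (adjusted p = 0.0124). Itgb1bp1, whose product ICAP1 competes with talin for the same tail and is not muscle-specific, was at 14.6, 14.5 and 13.9 FPKM in young and 13.5, 13.6 and 14.7 FPKM in aged muscle. Its groups overlapped and it was not called (change -0.04 ± 0.06, adjusted p = 0.646). Asap2, on the opposite strand, shares 11.4% of its exon bases.

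The integrin chains of blood cells are a check on the cells lying in the muscle. They include Itgb2 with its alpha partners Itgal, Itgam and Itgax on leukocytes, Itgb7 with Itga4 or Itgae on lymphocytes, and Itga2b on platelets. None of the 4 tested was called by limma, and values varied between the libraries of a group. Itgb2 was at 4.45, 1.34 and 1.96 FPKM in young and 2.07, 1.04 and 1.58 FPKM in aged muscle, with young replicate 1 above all others and the remaining libraries overlapping. Itgb7 was at 3.47, 1.32 and 1.61 FPKM in young and 1.29, 1.01 and 0.946 FPKM in aged muscle, with all aged values lower and young replicate 1 again the highest.

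Their changes were -0.41 ± 0.30 for Itgb2 (adjusted p = 0.275) and -0.53 ± 0.23 for Itgb7 (adjusted p = 0.0812). With the replicate number as a block both were called lower, at adjusted p = 0.0445 and 0.0232. Itga4 was at 3.61, 3.00 and 3.87 FPKM in young and 4.43, 2.78 and 6.77 FPKM in aged muscle, with aged replicate 3 the highest (change 0.27 ± 0.23, adjusted p = 0.348). Itga4 was called higher without aged replicate 2 (adjusted p = 0.0344) and by limma-voom on whole fragment counts with the block (adjusted p = 0.0415, without the block 0.359). The gene Cerkl, on the opposite strand, shares 8.04% of the exon bases of Itga4. Itga2b was at 2.18, 1.21 and 1.55 FPKM in young and 1.29, 0.988 and 1.29 FPKM in aged muscle, with overlapping groups (change -0.26 ± 0.14, adjusted p = 0.149). Of 6 platelet markers only Pf4 was listed, at 7.31, 3.93 and 6.46 FPKM in young and 10.6, 6.49 and 7.12 FPKM in aged muscle.

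Itgam and Itgax, which mark myeloid cells, lay under the minimum and were highest in young replicate 1 too. Itgam was at 0.931, 0.210 and 0.348 FPKM in young and 0.205, 0.0776 and 0.20 FPKM in aged muscle, and Itgax at 1.44, 0.190 and 0.490 FPKM in young and 0.283, 0.272 and 0.282 FPKM in aged muscle. Without the minimum neither was called (adjusted p = 0.169 and 0.311). By limma-voom they were at adjusted p = 0.0821 and 0.264, and with the replicate number as a block both were called lower there, at adjusted p = 0.00457 and 0.0380. Itgal and Itgae stayed under 0.5 FPKM in every library and were not called either (adjusted p = 0.792 and 0.0990). The second identifier listed as Itgam, named Gm49368 in GENCODE, held 5 fragments over the young and 9 over the aged libraries and shares 71.8% of its exon bases with Itgam. Of 12 leukocyte markers 10 were listed and 8 tested, of which 2 were called lower and 0 higher. That share called lower is near the 24.5% of all tested genes. They summed to 63.9 FPKM in young replicate 1, to 25.5 and 30.2 FPKM in the other young libraries, and to between 13.4 and 28.6 FPKM in the aged ones. Itgb2, Itgb7, Itgam, Itgax and Itgal were highest in this library with the highest marker sum, while Itga4 was highest in aged replicate 3 and Itgae in young replicate 3. The part of leukocytes in these values was not tested.

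**Figure D4:**
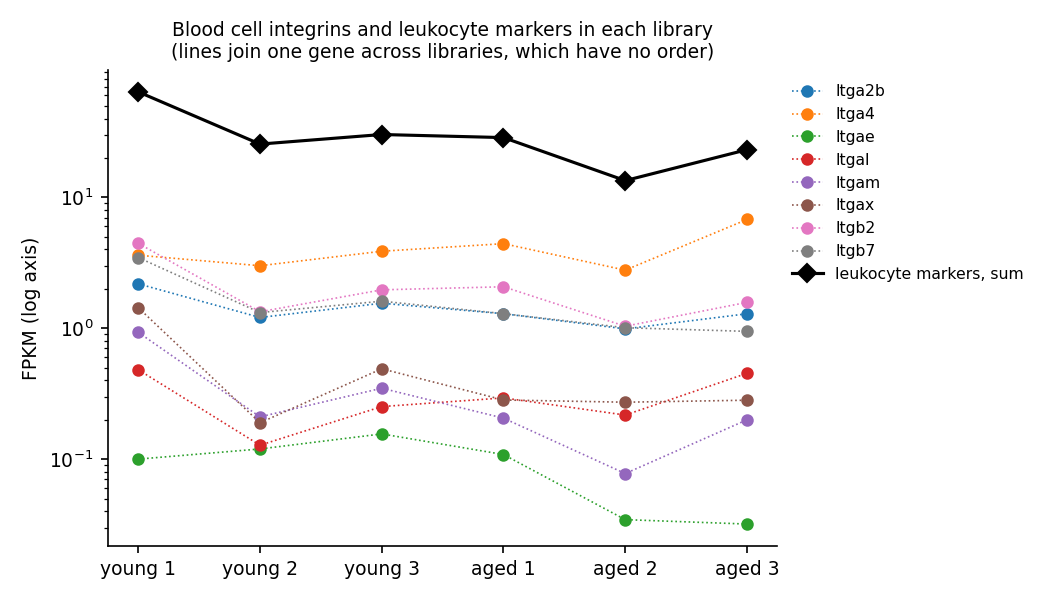
FPKM on a log axis of the blood cell integrin genes in each library (coloured points) and the summed FPKM of the 10 listed leukocyte markers (black diamonds). Lines only guide the eye, since replicates have no order. Young replicate 1 has the highest marker sum, 63.9 FPKM, and the highest Itgb2, Itgb7, Itgam and Itgax.

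Among the 10 listed cadherins Cdh13 fell and Cdh4 rose with age, Cdh23 was not called and the other 7 lay under the minimum. Cdh13 (chr8:118283733-119324921) encodes T-cadherin, which is held in the membrane by a lipid anchor, lacks the catenin-binding tail and binds adiponectin. It was the most abundant cadherin listed, at 52.9, 56.0 and 52.4 FPKM in young and 36.5, 32.8 and 37.6 FPKM in aged muscle. All aged libraries were lower, 1.51-fold in the mean, and the change was -0.58 ± 0.07 (adjusted p = 0.000559).

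Cdh4 (chr2:179442431-179899373), R-cadherin, a classical cadherin known from retina, brain and developing muscle, was at 0.808, 1.74 and 2.15 FPKM in young and 4.26, 2.64 and 5.34 FPKM in aged muscle. The groups did not overlap, but the libraries of each group varied widely, with means of 1.57 ± 0.689 and 4.08 ± 1.36 FPKM (SD, n = 3 each). The aged mean was 2.60-fold higher and the change was 0.99 ± 0.25 (adjusted p = 0.0130). Cdh23, which forms the tip links of hair cells in the inner ear, was at 3.14, 3.76 and 3.41 FPKM in young and 2.82, 3.82 and 3.21 FPKM in aged muscle, with overlapping groups (adjusted p = 0.671).

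Among the cadherins under the minimum, Cdh2 and Cdh11 were lower in every aged library. Cdh2, N-cadherin, which muscle precursors and nerve use, was at 0.740, 0.717 and 0.758 FPKM in young and 0.305, 0.201 and 0.259 FPKM in aged muscle. The mean was 2.89-fold lower, from 808 fragments over the young and 289 over the aged libraries, and the gene was called without the minimum (adjusted p = 0.00135). Cdh11, a cadherin of mesenchymal cells, was at 0.621, 0.632 and 0.639 FPKM in young and 0.326, 0.238 and 0.337 FPKM in aged muscle, 2.10-fold lower and called (adjusted p = 0.00280). Of 8 Schwann cell markers 6 were tested, of which 2 were called lower and 0 higher, with sums of 89.2 to 102 FPKM in young and 65.5 to 68.4 FPKM in aged muscle. Of 6 satellite cell (muscle stem cell) markers 3 were tested, of which 1 was called lower and 0 higher, with sums of 23.8 to 25.5 FPKM in young and 16.2 to 19.0 FPKM in aged muscle. The part of these cells, and of the fibroblasts and tendon cells, in the changes of Cdh2 and Cdh11 was not tested.

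Cdh3, P-cadherin, had 86 fragments over the young and 18 over the aged libraries. It lay just outside the threshold without the minimum (adjusted p = 0.0517) and was called lower by limma-voom on whole fragment counts (adjusted p = 0.0216). Cdh22 was higher in every aged library, at 0.285, 0.281 and 0.277 FPKM in young and 0.448, 0.404 and 0.304 FPKM in aged muscle, and was not called (adjusted p = 0.0853). Cdh6 and Cdh24 were not called either (adjusted p = 0.131 and 0.189), and Cdh8 is listed at 0 in all 6 libraries.

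Catenins and related proteins tie classical cadherins to the cytoskeleton. Of 19 such genes 9 were tested, of which 2 were called higher, 4 lower and 3 not called (median change -0.08). Ctnna3, alpha-T-catenin, known from heart muscle and testis, rose from 1.98, 1.69 and 2.71 to 5.98, 6.05 and 5.96 FPKM (change 1.17 ± 0.12, adjusted p = 0.000295). Jup, plakoglobin, a catenin shared by adherens junctions and desmosomes, fell from 138, 160 and 128 to 75.0, 81.2 and 81.2 FPKM (change -0.83 ± 0.09, adjusted p = 0.000360). Pkp2 and Pkp4, plakophilins of the armadillo repeat family, changed in opposite directions, by 0.49 ± 0.08 (adjusted p = 0.00180) and -0.49 ± 0.15 (adjusted p = 0.0262).

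Protocadherins outside the gene clusters split by gene. Pcdh12 (chr18:38267092-38284402), a protocadherin of endothelial cells, was at 1.08, 1.06 and 1.09 FPKM in the young libraries, which were nearly equal, and at 1.46, 2.39 and 1.87 FPKM in the aged ones. Every aged library was higher, with a change of 0.47 ± 0.12 (adjusted p = 0.0125). Of 8 endothelial markers 7 were tested, of which 1 was called higher, Kdr, and 4 lower. Their sum was 211 to 249 FPKM in young and 172 to 205 FPKM in aged muscle, so Pcdh12 moved against the sum, and the part of endothelial cells in the changes of Pcdh12 and Cdh13 was not tested. Pcdh1 was at 9.49, 11.2 and 9.65 FPKM in young and 10.5, 9.27 and 7.17 FPKM in aged muscle, with overlapping groups (change -0.17 ± 0.13, adjusted p = 0.299).

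The other 5 of these protocadherins lay under the minimum. Pcdh17 was at 0.302, 0.330 and 0.355 FPKM in young and 0.219, 0.185 and 0.188 FPKM in aged muscle, lower in every aged library and called without the minimum (adjusted p = 0.00857). Pcdh20 was lower in every aged library too, with 106 and 30 fragments, and was called at adjusted p = 0.0295 but not with the replicate number as a block (adjusted p = 0.0665). Pcdh9, with 40 and 88 fragments, was higher in every aged library. Its call at adjusted p = 0.0425 was lost with the block (adjusted p = 0.108) and by limma-voom on fragment counts (adjusted p = 0.0570). Pcdh10, with 38 and 104 fragments, was not called without the minimum (adjusted p = 0.101). For Pcdh15 the libraries of each group held 12 and 19 fragments, too few for a change to be given.

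The clustered protocadherins lie side by side on chromosome 18, where 18 of the 63 members are found. In the gamma cluster each gene has its own first exon, spliced to constant exons that all gamma genes share, and neurons express different sets of them. Pcdhgc3 (chr18:37806364-37841873) is a C-type gene. Aged muscle had a higher summed FPKM on the listed A and B genes and a lower FPKM on Pcdhgc3.

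Pcdhgc3 was at 1.35, 1.31 and 1.36 FPKM in young and 1.03, 0.871 and 0.990 FPKM in aged muscle, lower in every aged library. The change was -0.25 ± 0.08 (adjusted p = 0.0256). The call did not hold in every alternative. The gene passed the minimum through the young libraries alone, and leaving out young replicate 1, 2 or 3 or aged replicate 2 gave adjusted p of 0.0695, 0.0605, 0.0754 and 0.0604.

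All 10 listed A and B genes had higher means in aged muscle, and all lay under the minimum. The annotation holds 18 protein-coding A and B genes, and lists Pcdhgb8 as a polymorphic pseudogene beside them. The most abundant, Pcdhgb6, was at 0.336, 0.412 and 0.194 FPKM in young and 0.490, 0.475 and 0.510 FPKM in aged muscle. Pcdhgb2 was at 0.114, 0.172 and 0.198 FPKM in young and 0.438, 0.455 and 0.498 FPKM in aged muscle, and Pcdhga2 at 0.123, 0.0741 and 0.0961 FPKM in young and 0.336, 0.327 and 0.389 FPKM in aged muscle. Pcdhgb7 was at 0.0749, 0.0531 and 0.0852 FPKM in young and 0.265, 0.390 and 0.255 FPKM in aged muscle, 4.27-fold higher in the mean. None of these groups overlapped.

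Without the minimum 5 of the 10 were called higher, namely Pcdhga2, Pcdhgb2, Pcdhgb4, Pcdhgb5 and Pcdhgb7, with adjusted p between 0.00195 and 0.0112, where 20.8% of all genes were called higher. By limma-voom on fragment counts, an alternative added after seeing the data, 9 of the 10 were called higher, all but Pcdhga1 (adjusted p = 0.0747). In that fit 23.4% of all genes were called higher. Because the 10 genes share constant exons, their calls cannot be taken as separate observations to set against these shares. Summed over the 10 genes, the libraries held 460, 339 and 426 fragments in young and 1068, 1056 and 1024 in aged muscle. Pcdhgc3 held 518, 367 and 539 fragments in young and 404, 307 and 346 in aged muscle, which overlap. These fragment numbers are not adjusted for the depth of a library, which was lowest in young replicate 2. The A and B genes thus held 47.0%, 48.0% and 44.1% of the fragments of all listed gamma genes in young and 72.6%, 77.5% and 74.7% in aged muscle.

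The gamma genes share their constant exons, which make up between 31.4% and 45.9% of the exon bases of the 11 listed. No source used here says how fragments of these shared exons were assigned, so values of single gamma genes are uncertain. The split between the A and B genes and Pcdhgc3 depends on the same step. Transcripts on the opposite strand overlap some of these genes too. BC037039 shares 28.4% of the exon bases of Pcdhgc3 and Gm26672 shares 16.4% of those of Pcdhgb7. For Pcdhga1, Pcdhga7 and Pcdhga8 such overlaps are 7.57%, 10.3% and 8.79%. The strandedness of the libraries is not given, so reads of these pairs cannot be told apart, which limits the split as well. The 4 listed beta protocadherins, which have no shared constant exons, held none that was called higher. Pcdhb22 was at 0.243, 0.225 and 0.291 FPKM in young and 0.0914, 0.139 and 0.140 FPKM in aged muscle, lower in every aged library (adjusted p = 0.0120 without the minimum). Pcdhb3, Pcdhb15 and Pcdhb20 were not called, with 46, 88 and 143 fragments in young and 34, 57 and 121 in aged muscle.

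**Figure D5:**
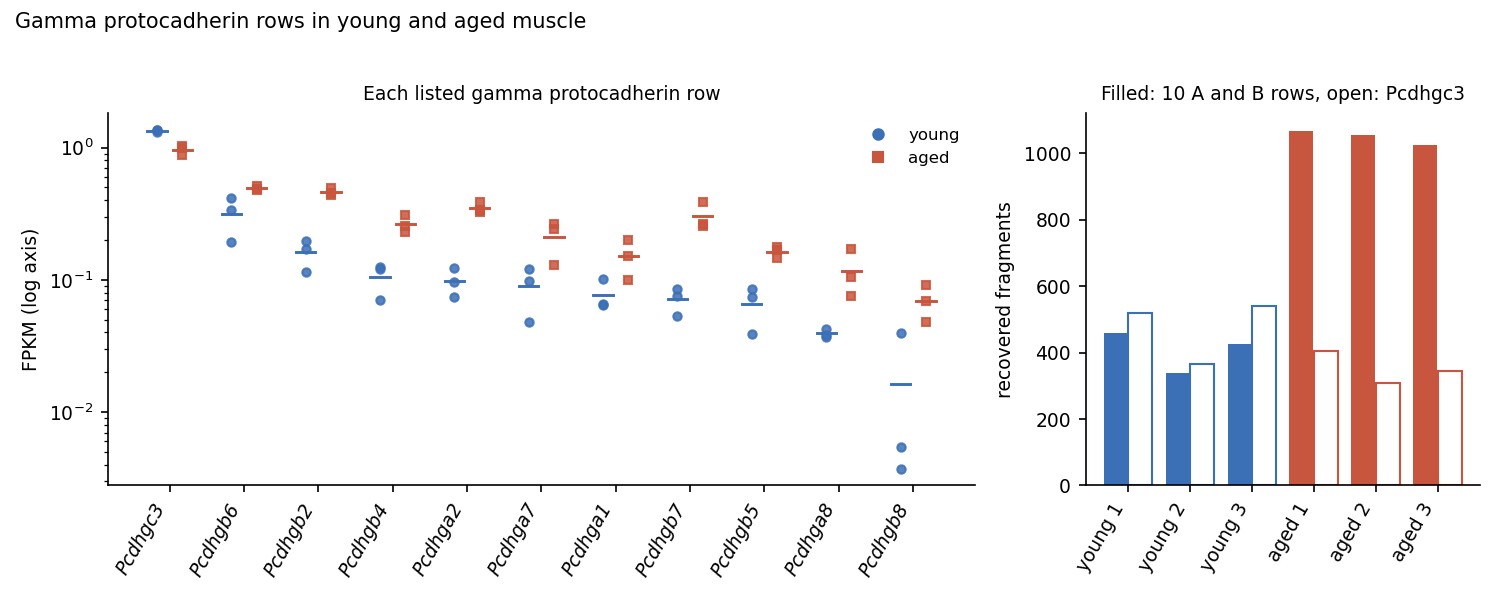
Left, FPKM of the 11 listed gamma protocadherin genes in each library on a log axis, with blue circles for young, red squares for aged and a line at the group mean. Right, fragments per library summed over the 10 A and B genes (filled bars) and on Pcdhgc3 (open bars). The filled bars reach at most 460 in young and at least 1024 in aged libraries. The open bars lie between 367 and 539 in young and between 307 and 404 in aged libraries, and so overlap. Fragments are not adjusted for the depth of a library.

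Over all 34 members under the minimum, 6 were called higher and 6 lower when no minimum was set, where 20.8% of all 11239 genes were called higher and 19.2% lower. By limma-voom on whole fragment counts 33 of them were tested, 10 were called higher and 7 lower, where 23.4% of 10885 genes were called higher and 20.8% lower. The 10 were 9 gamma protocadherins, which share exons and are not separate observations, and Pcdh10. The 7 were Cdh2, Cdh3, Cdh11, Itga10, Pcdh17, Pcdh20 and Pcdhb22. At these depths the low genes rest on few fragments, so that a missing call among them does not show an equal level.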

How the data were processed

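Per the labels' protocols, total RNA came from a TRIzol extraction and libraries from the standard Illumina procedure. The submitters' processing notes name bcl2fastq 2.19, TopHat, DESeq2 and the build mm9, whereas positions in the deposited tables match GRCm38 (56 of 63 members start at the base GENCODE M21 gives) and are printed on that build. The authors deposited FPKM values, a table for each library. These returned whole fragment counts within 0.001 for 100% of values, with library totals of 71984420 to 102135094 and, for 78.0% of genes with several transcripts, the mean annotated length.

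FPKM was taken as log2(FPKM + 1) without further scaling. The 2 ages were compared with limma 3.58.1 (R 4.3.3) over genes whose mean reached 1 FPKM, using trended empirical Bayes, two-sided tests and Benjamini-Hochberg adjustment over all genes tested, with a threshold of 0.05. Genes under the minimum come from the same model without it, beside limma-voom on the recovered counts of genes with at least 10 fragments, an alternative added after seeing the data. The code was tested on simulated data. The members and all lists were chosen with earlier results of these data known. Full values go to called members whose groups do not overlap and to Dmd, Utrn and Itga7, and up to 4 called genes with the largest changes are named in each partner list. Npnt and Kdr were named beyond this after their values were seen, each as the 1 gene of its list called higher. Actn3, which was not called, was named in the same way, to stand beside Actn2. Among the named members, Dag1 and Itgb1 were not analysed here. Some genes that the rule and the partner lists hold are not reported here, and the counts of members and of list genes leave them out.

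Both groups carry replicate numbers 1 to 3. With group means removed, the correlation across genes of same-numbered libraries was 0.177, 0.182 and 0.136, and that of the others -0.192 to 0.0358. Removing the means of groups of 3 ties these correlations to each other, since higher ones in some pairs bring lower ones in others. They therefore cannot decide whether the samples were paired, and no pairing is stated. The reported calls come from the fit that ignores the numbers. The fit with the number as a block is an alternative, given where it changed a call.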

Additional observations from a re-analysis of the deposited data

How the results depend on the processing

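Of the 13 tested members called, 12 kept their call and direction in every alternative that tested them, and Pcdhgc3 lost its call in 4. The members called higher were 11 with no minimum and 3 with a minimum mean of 5 FPKM, beside 5 as reported. The members called lower were 14 with no minimum and 2 with a minimum of 5 FPKM, beside 8. These counts follow the number of members tested, 63 with no minimum, 29 as reported and fewer with a minimum of 5 FPKM. With no minimum 20.8% of all genes were called higher and 19.2% lower. With the replicate block 5 were called higher and 11 lower, since Itga11, Itgb2 and Itgb7 gained a call, and the block changed no other call among the tested members. Without the minimum the block ended the calls of Pcdh9 and Pcdh20, and in limma-voom it also gave calls to Itga4, Itgb6, Itgam and Itgax. Leaving out each library gave 5 to 7 higher and 7 to 9 lower.

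Of the 16 members not called, 9 gained a call in at least 1 alternative and 7 in none. The directions that turned were all of genes not called. Rescaling without the 20 highest genes gave 0.018 for Utrn and 0.026 for Itgb1bp1, and median-of-ratios scaling gave -0.023 for Itga7. Leaving out each library gave -0.033 to 0.066 for Itga7 and -0.14 to 0.023 for Cdh23, and by limma-voom -0.17 to 0.71 for Itgal. The median change of all tested genes moved from 0.020 to -0.004 with median-of-ratios scaling and to 0.077 without the 20 highest genes, so no scaling shifted it by over 0.1. In the partner lists, leaving out a library gave as few as 1 adhesion gene higher, 4 dystrophin partners lower and up to 2 glycosylation genes lower, median-of-ratios scaling also gave 2 of the latter lower, and a minimum of 5 FPKM left 0 ligands and 0 catenin genes higher. Depth limits the members under the minimum, where a library held at most 440 fragments of a gene.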
